A study of Mus musculus with 41 samples.

Results

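Ribosome footprints of control mouse embryos at embryonic day (E) 8.5 were compared with those of control mouse cerebella at postnatal day (P) 14. The members are the 3 control embryo and the 3 control cerebellum footprint libraries, chosen by tissue and genotype from the sample labels, and they make up 6 of the 41 libraries of the series and 6 of its 30 footprint libraries. The series examines the loss of the ribosome rescue factors Hbs1l and Pelo and of the decay factor Upf2 in embryos, cerebellum and fibroblasts. In that design each control group serves its own mutant, so the comparison of the 2 tissues joins controls of separate experiments and asks which genes ribosomes translate in each. The embryo libraries came from whole embryos, genotype Wildtype, strain C57BL/6NJ, with 5 embryos pooled per replicate. The cerebellum libraries came from 1 cerebellum per replicate, genotype Atoh-Cre;Hbs1l +/+, strain C57BL/6J. These mice have intact Hbs1l and carry the Tg(Atoh1-Cre) transgene, whose Atoh1 promoter drives Cre in granule cell progenitors. The whole embryos are a mixture of all tissues present at that day, and the cerebellum a mixture of neurons, glia, vessels and blood.

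A ribosome covers a short stretch of the mRNA it reads, and the fragments left after nuclease digestion show which coding sequences were being translated. At E8.5 the mouse embryo is finishing gastrulation: somites form, the heart tube starts to beat, and the yolk sac supplies primitive red blood cells and secretes the plasma proteins that the liver will make later. At P14 the cerebellum is close to the end of its development. Granule neurons have largely left the cell cycle and are wiring to Purkinje cells, the output neurons of the cerebellar cortex, while Bergmann glia, astrocytes and myelinating oligodendrocytes mature around them.

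The embryo libraries held 2634480, 4067319 and 2933378 fragments on coding sequences and the cerebellum libraries 12771304, 22119338 and 22496959, so that 3 fragments stand for 0.957 CPM in an embryo library and for 0.179 CPM in a cerebellum library on average. CPM, the unit of all levels, is a count relative to the library's total, here scaled by TMM factors that allow for a changed make-up of the library. Levels are given with the mean ± SD of 3 libraries, and log2 differences are cerebellum against embryo, with positive values higher in cerebellum. Several properties differ between the groups together with tissue and cannot be told apart from it: age, strain, the Cre transgene, pooling, the sequencing batch (Batch 1 for embryos, Batch 2 for cerebella), the pools run on 2 or 3 lanes, and the fragment sizes cut from the gel, from 15 nucleotides upward in embryos and from 26 in cerebella, each up to 34. The study states that C57BL/6J, the labelled strain of the cerebella, carries a mutation in the brain-specific arginine tRNA gene n-Tr20. It describes ribosome pausing at AGA codons in cerebellar mRNAs as a result. By its methods this form was bred into the Hbs1l line, and the state of the control embryos themselves is not given in the sources used here. The part of n-Tr20 in the differences between tissues was not tested. The strain marker Nnt was listed at 0 in all 6 libraries. In bulk tissue fewer cells of a type and less RNA per cell cannot be told apart, and without RNA libraries of these tissues neither can mRNA amount and translation per mRNA. Replicates were separate embryo pools or separate mice, and p-values measure the spread between these 6 samples. Cerebellum replicate 3 stood apart from the other 2. Its chi-square per gene against them was 71.5 and 73.5, where replicates 1 and 2 gave 12, and its Pearson correlation of log CPM across genes was 0.9753 and 0.9824, where they gave 0.991. The embryo libraries, with fewer fragments, correlated at 0.966 to 0.971. Cerebellum replicate 3 held 2.05 times the other cerebella's share of mitochondrially encoded footprints, 1.39 times that of Bergmann glia and astrocyte genes and 0.59 times that of Purkinje cell genes. Cerebellum replicate 1 held 2.53 times the choroid plexus and 2.68 times the collagen share of the others. It was also the only cerebellum with a high level of the Y-linked gene Ddx3y (99.7 CPM, against 1.64 and 0.786). The part of these departures in any result was not tested beyond the values given with single libraries left out.

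Most genes differed in footprint level between the 2 tissues. Of 13990 genes tested, 11214 (80.2%) differed at an adjusted p of at most 0.05 in edgeR's quasi-likelihood test (p adjusted after Benjamini and Hochberg), of which 6160 (44.0% of the genes tested) were higher in cerebellum and 5054 (36.1%) higher in embryo. In 11570 genes (82.7%) no library of a tissue overlapped the range of the other. A difference of at least 2-fold was called for 5000 genes (35.7%) higher in cerebellum and 3580 (25.6%) higher in embryo, and one of at least 10-fold for 2178 and 963. The median log2 difference over all genes tested was 0.21 with TMM factors and 0.05 with library totals, a shift of 0.15, and with library totals the share of calls higher in cerebellum was 51.2% in place of 54.9%. All differences below are to be read against these shares and this median. A gene near 0 in a tissue passes the low-count filter only through the other tissue, so that its direction among the tested genes is set beforehand. Among 4717 genes with at least 50 CPM in cerebellum, 233 had 3 fragments or fewer in every embryo library. Among 4171 genes at that level in embryo, 37 had 3 fragments or fewer in every cerebellum library. Another view is that 2542 genes reached 50 CPM in both tissues, and 1614 of these lay within 2-fold of each other. The Hbs1l-deficient libraries of the same tissues are other samples from the same batches. Age, batch, gel cut and lanes go with tissue there too, so they cannot be told apart from it in that set either. There, of 11082 called genes that could also be tested, 9758 were called with the same sign and 19 with the other.

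**Figure D1:**
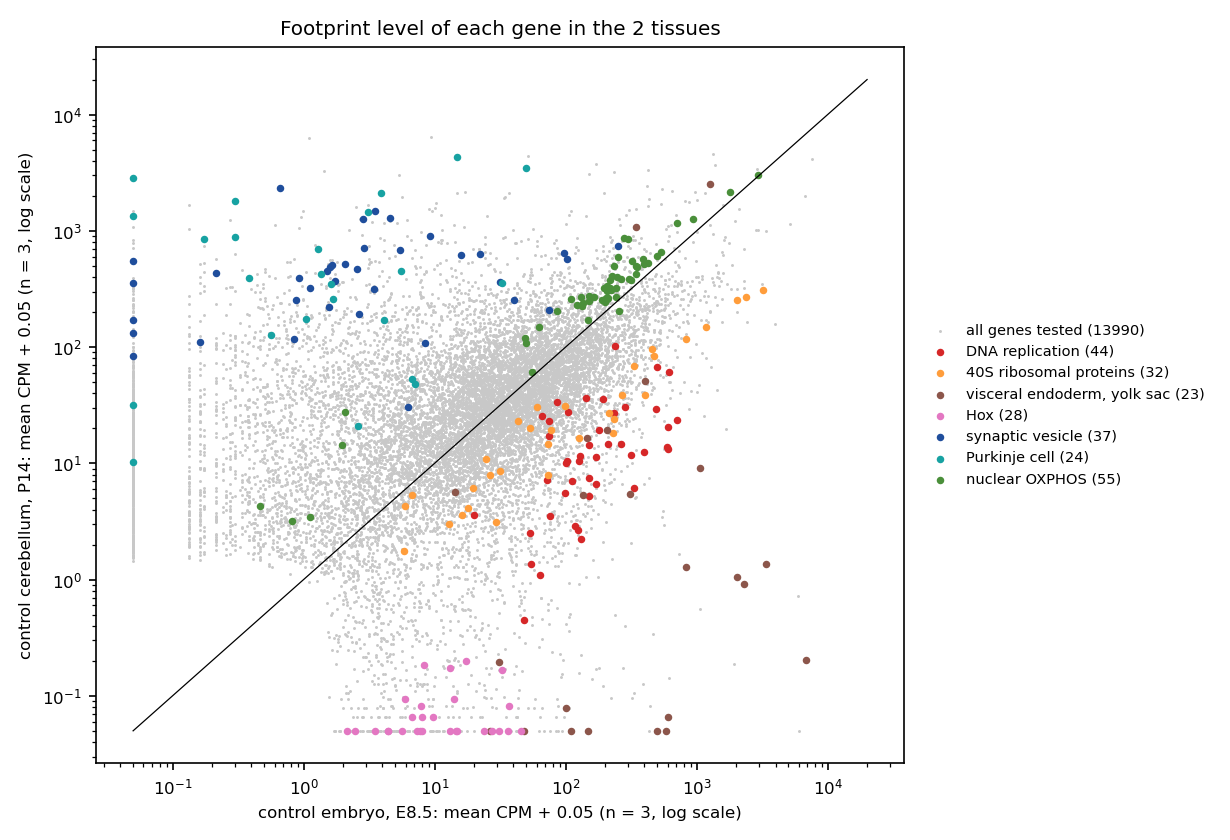
Mean footprint level of each gene in control embryos (x axis) and control cerebella (y axis), in CPM + 0.05 on log scales, n = 3 libraries a tissue, with 7 gene lists coloured and the line of equal levels drawn. DNA replication, Hox and most yolk sac and ribosomal protein genes lie below the line, and synaptic vesicle and Purkinje cell genes above it.

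The genes with the most footprints differed in kind. In embryos these were Actb with 7593 CPM, Apob with 6827, Hsp90ab1 with 6750, Hba-x with 6081, Hbb-bh1 with 5899, Tubb5 with 5155, Slc2a3 with 3949, Eef2 with 3401, Cubn with 3380 and Rack1 with 3213. They encode cytoskeleton, a chaperone, primitive haemoglobins, yolk sac lipoprotein and endocytosis proteins, a glucose transporter and the translation apparatus. In cerebella the leading genes included mt-Co1 with 4562 CPM, Sparcl1 with 4358, Aldoc with 4290, Actb with 4140, Itm2b with 3738, mt-Cytb with 3687, Itpr1 with 3472 and Apoe with 3385. These encode mitochondrial respiratory subunits, an astrocyte matrix protein, a brain aldolase, the calcium release channel of Purkinje cells and a glial lipid carrier. Per kilobase of coding sequence, which compares genes of unequal length, Hbb-bh1 had 13376 CPM per kilobase in embryos, Hba-x 10802 and Actb 6696. The length used for Hba-x, 563 bases, joins all its annotated coding exons, while its coding sequence has 429. Its value is thus too low for that sequence, and which of these globins led is uncertain. In cerebella Ttr had 5753 CPM per kilobase and Pvalb, a calcium buffer of Purkinje cells and interneurons, 5517. Thinned to 2515201 fragments each, embryo libraries had 10861 to 10971 genes with 10 fragments or more and cerebellum libraries 11847 to 11923. The 10 leading genes took 5.07% to 5.56% of fragments in embryos and 4.21% to 4.60% in cerebella.

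The primitive globin genes differed sharply between the tissues. Haemoglobin is built from alpha-type and beta-type chains. Hba-x, Hbb-bh1 and Hbb-y are the embryonic genes of the primitive red cells of the yolk sac, and Hba-a1, Hba-a2, Hbb-bs and Hbb-bt the adult-type genes. The adult-type alpha genes are not confined to definitive red cells. The first 60 bases of the 4 beta-type coding sequences are shown because footprints can be assigned to a gene only where its sequence differs from its relatives. They are from Gencode M21, 5′ to 3′, with capitals at the 28 positions at which the 4 are not all alike, and each gene lies on the minus strand of chromosome 7 in GRCm38.
Hbb-bh1: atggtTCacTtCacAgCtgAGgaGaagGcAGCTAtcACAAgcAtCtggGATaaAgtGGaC
Hbb-y: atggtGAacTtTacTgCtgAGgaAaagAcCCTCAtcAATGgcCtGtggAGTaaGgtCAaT
Hbb-bs: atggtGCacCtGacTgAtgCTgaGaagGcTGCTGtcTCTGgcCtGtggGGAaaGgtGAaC
Hbb-bt: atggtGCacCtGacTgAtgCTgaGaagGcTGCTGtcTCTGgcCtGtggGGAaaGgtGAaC
The last pair reads the same over this stretch. Of all 30-base windows of the Hbb-bs coding sequence, 93.3% also occur in Hbb-bt, and 92.5% of those of Hba-a1 occur in Hba-a2, so the split within each of these pairs is uncertain. No such window is shared among Hbb-bh1, Hbb-y and Hbb-bs, nor between Hba-x and Hba-a1. Shorter windows, as short as some of the fragments kept, were not searched.

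Hbb-bh1 (chr7:103841637-103843164) had 5442, 5540 and 6715 CPM in embryos and 0.934, 0.915 and 0.185 in cerebella. Hbb-y (chr7:103851749-103853216) had 1681, 1649 and 2452 against 0.170, 0.193 and 0.0462. The lowest embryo value of the pair was 1649 CPM and no cerebellum reached 1 CPM. Hba-x (chr11:32276400-32278116) had 5117, 6240 and 6888 CPM in embryos and 0 fragments in all 3 cerebella, at least 33922-fold higher in embryo when cerebella are set to 3 fragments per library. The adult-type genes were present in both tissues. Hbb-bs (chr7:103826534-103828096) had 6.72, 10.9 and 4.37 CPM in embryos and 76.7, 94.7 and 50.9 in cerebella, 9.75-fold higher in cerebellum (log2 3.29, SE 0.32, adjusted p = 4.69e-06, edgeR). Hbb-bt was 8.35-fold higher there (adjusted p = 4.05e-05, edgeR). Hba-a1 was 1.87-fold higher in embryo, with 88.1, 94.7 and 110 CPM against 53.0, 62.7 and 41.1 (log2 -0.90, SE 0.17, adjusted p = 0.000626, edgeR), and Hba-a2 missed the threshold (log2 -0.25, adjusted p = 0.219, edgeR). Of the beta-type pair Hbb-y and Hbb-bs, the adult-type gene thus took 0.410% of the footprints per coding length in embryos and 99.8% in cerebella. Among the 20 erythroid genes listed, 19 were tested, 15 were higher in embryo and 2 in cerebellum, with a median log2 difference of -4.36. Gata1, the erythroid transcription factor, had 30.7 CPM in embryos and 0.117 in cerebella, and Klf1, which activates adult globin genes, was 45.1-fold higher in embryo (27.5 against 0.617 CPM). Tfrc, the transferrin receptor, missed the threshold (adjusted p = 0.0971, edgeR). The list took 1.49% of embryo and 0.0711% of cerebellum footprints.

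Footprints of yolk sac and visceral endoderm genes were abundant in the embryo libraries. This extraembryonic epithelium takes up maternal proteins and secretes lipoproteins. Of 25 such genes, 23 were tested, 21 were higher in embryo and 2 in cerebellum. In 8 of the 25 only embryo libraries held more than 3 fragments. The median log2 difference was -10.91, or -8.07 with genes at 0 in a tissue set to their bound, and the list took 2.16% of embryo footprints. Afp (chr5:90490737-90508907), the fetal counterpart of albumin, had 1993, 2009 and 2057 CPM in embryos and 0.679, 1.3 and 1.02 in cerebella, 1924-fold higher in embryo (log2 -10.91, SE 0.24, adjusted p = 1.83e-09, edgeR). The apolipoprotein gene Apoa1 was 2692-fold higher (2286 against 0.860 CPM), and the endocytic receptor genes Cubn and Lrp2 2458-fold and 677-fold. Apob, which carries lipid out of the cell, had 6827 CPM in embryos and 0.154 in cerebella. The retinol carrier Rbp4 was 118-fold higher in embryo. The fibrinogen gene Fga and the transcription factors Hnf4a and Foxa2 had no fragment in any cerebellum and were at least 616-fold, 270-fold and 146-fold higher in embryo. The 2 exceptions are carriers that brain cells also make. Trf, transferrin, had 345 ± 16.2 CPM in embryos and 1084 ± 37.8 in cerebella (3.14-fold). Ttr, a thyroxine carrier of the choroid plexus, had 1305, 1158 and 1356 CPM in embryos and 4381, 962 and 2267 in cerebella, which overlap (log2 0.99, SE 0.41, adjusted p = 0.0467, edgeR). Without cerebellum replicate 1, the library with the most choroid plexus footprints, its log2 difference was 0.37 (adjusted p = 0.23, edgeR).

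Of 25 cardiomyocyte genes, 21 were higher in embryo and 2 in cerebellum, with a median log2 difference of -6.99 (-6.72 with bounds). In 8 of the 25 only embryo libraries held more than 3 fragments. Actc1, cardiac actin, had 1025, 1096 and 1087 CPM in embryos and 0.425, 0.818 and 0.277 in cerebella, a 2028-fold difference. The atrial myosin light chain Myl7 had 324 CPM against 0.0462, the myosin heavy chain Myh6 171 against 0.119, and the cardiac transcription factor Nkx2-5 15.1 against none (at least 84.4-fold). Cerebella were not free of this list. Ttn, titin, had 55.8, 4.77 and 1.90 CPM there against 171, 347 and 168 in embryos (log2 -3.53, adjusted p = 0.00631, edgeR), and without cerebellum replicate 1 the list's median was -8.05. Mybpc3, a cardiac myosin-binding protein, had 86.6, 97.2 and 72.9 CPM in embryos and 73.6, 71.2 and 91.4 in cerebella (log2 -0.12, adjusted p = 0.475, edgeR). Mef2c, a transcription factor of muscle and neurons, and Smpx, a muscle protein gene, were higher in cerebellum, by 1.37 and 1.77 on the log2 scale. The 20 trophoblast genes together took 0.0221% ± 0.00175 of embryo footprints and 0.000157% of cerebellum footprints. Only 10 of them were tested, all called higher in embryo, a direction that the filter fixed where cerebella were near 0. Of the 20, 12 had no fragment in any cerebellum. The placental gene Plac1 had 38.1 CPM against none. The prolactin family gene Prl8a2, which the maternal decidua makes, had 41.8, 119 and 68.2 CPM in embryos and no fragment in cerebella (at least 426-fold). Of the 10 decidua genes, 5 were higher in embryo and 2 in cerebellum. Of 15 endothelial genes, 8 were higher in embryo and 4 in cerebellum: the early vessel factor Etv2 was seen in embryos only (at least 166-fold) and the VEGF receptor Kdr had 177 CPM against 95.4, while Cldn5, a tight junction protein of the blood-brain barrier, was 5.54-fold higher in cerebellum.

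Most genes of early cell identity and body patterning had more footprints in embryos, many with few or none in cerebella. Of 24 pluripotency and oncofetal RNA-binding genes, 18 were tested, 16 were higher in embryo and none in cerebellum (median -9.0, or -7.22 with bounds). In 9 of the 24 only embryo libraries held more than 3 fragments. Lin28a (chr4:134003330-134018841), which blocks let-7 miRNA maturation, had 442, 426 and 423 CPM in embryos and no fragment in cerebella (at least 2400-fold). The let-7 targets Trim71 and Hmga2 were at least 521-fold and 382-fold higher in embryo, and Igf2bp1 and Sall4 had 618 and 331 CPM against 0.0931 and 0.0566. Pou5f1, the pluripotency factor Oct4, was still read in embryos at 34.7, 14.1 and 10.8 CPM. Sox2, which neural progenitors and glia also use, had 83.2 ± 3.56 CPM in embryos and 41.7 ± 3.52 in cerebella (log2 -1.0). Hox genes, which set position along the body axis, took 0.0423% ± 0.00377 of embryo footprints and 6.94e-05% of cerebellum footprints over all 39 listed. The 28 tested were all called higher in embryo, most having passed the filter through the embryo libraries alone. Of the 39, 27 had no fragment in any cerebellum and 4 of these had none in any of the 6 libraries (Hoxb13, Hoxc12, Hoxc13 and Hoxd12). Hoxb9 (chr11:96271457-96276595) had 35.8, 54.4 and 47.7 CPM in embryos (at least 257-fold), Hoxb1 had 36.3 and Hoxc8 30.7. Of 28 primitive streak and somite genes, 25 were tested, 20 were higher in embryo and 4 in cerebellum (median -3.69). Cdx2 and Cdx4, the caudal homeobox factors, had 85.0 and 87.1 CPM in embryos and none in cerebella, T, the mesoderm factor brachyury, 42.5 against 0.016, and Twist1 was 34.1-fold higher in embryo. The exceptions included Eomes, which marks the streak and also unipolar brush cells of the cerebellum (2.96 against 27.4 CPM, log2 3.24), and the homeobox gene Uncx (2.29 ± 1.64 against 55.5 ± 8.06 CPM, 22.6-fold). Of 46 ligands and antagonists of developmental signalling, 43 were tested, 30 were higher in embryo and 7 in cerebellum (median -2.64). Fgf8 had 42.9 CPM in embryos against 0.016, the retinoic acid enzymes Aldh1a2 and Cyp26a1 128 and 63.8 against 20.5 and 0.016, and Wnt5b was 33.1-fold higher in embryo. Shh, which Purkinje cells secrete in the young cerebellum, was 2.25-fold higher in embryo (24.9 against 11.1 CPM). The other way, Wnt3 (1.80 against 36.4 CPM, 21.6-fold) and Wnt7a (3.23 against 39.2 CPM, 12.5-fold), made by Purkinje and granule neurons, were higher in cerebellum.

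**Figure D2:**
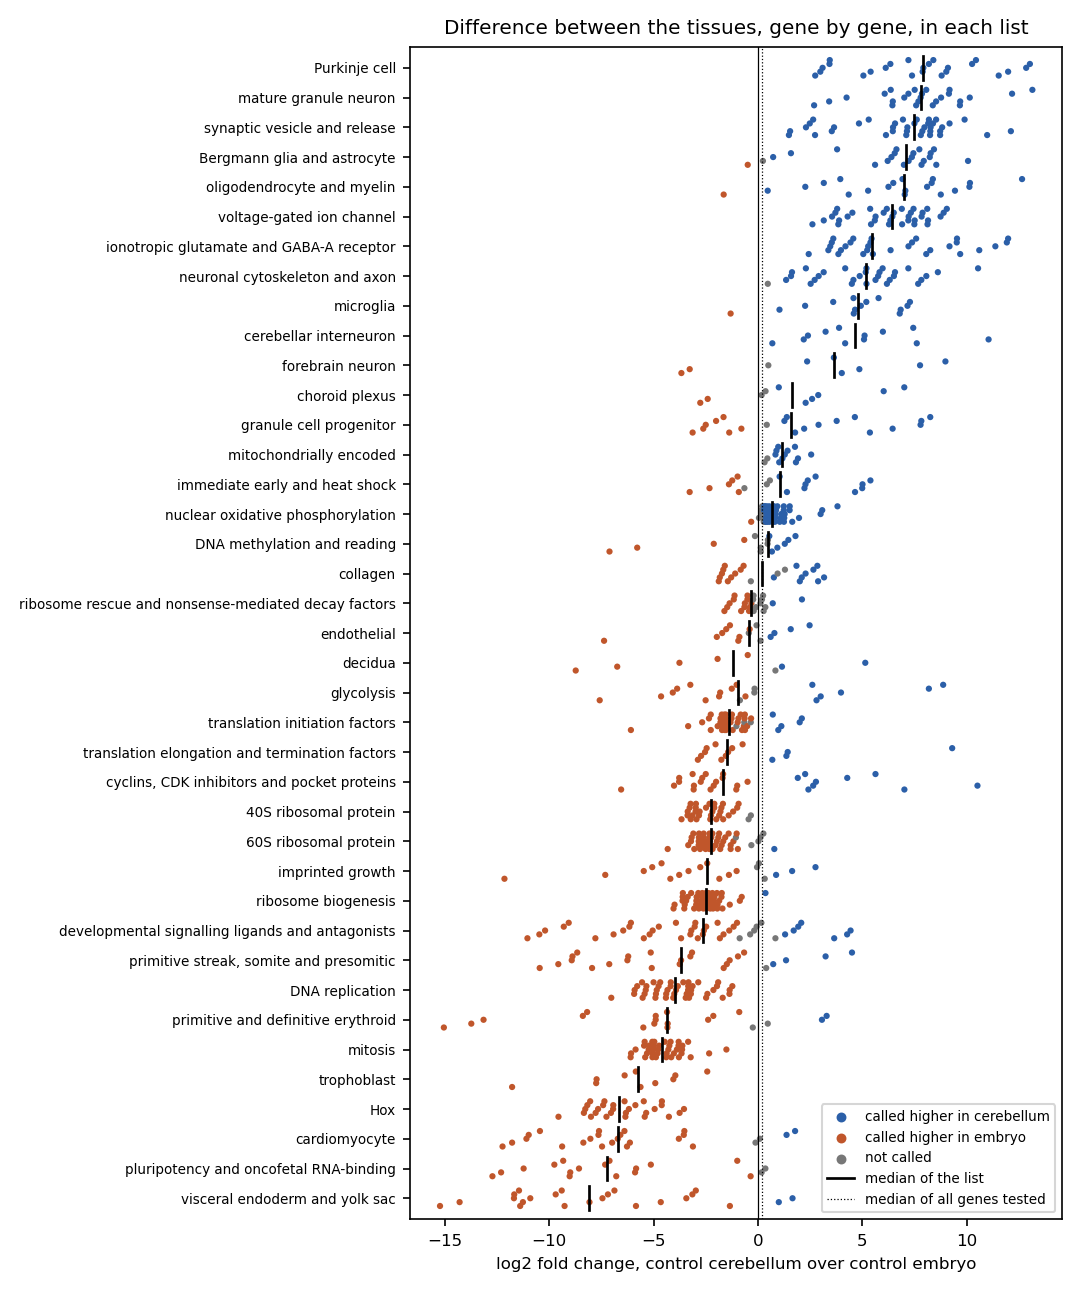
Log2 difference in footprints, cerebellum against embryo, of every tested member of each gene list, one point a gene, with a black bar at the list's median (genes at 0 in a tissue at their bound) and a dotted line at the median of all tested genes, 0.21. The x axis is the log2 difference and colours give the call. The median bars of the neuronal and glial lists lie right of that of all genes and those of the Hox, pluripotency, cell division and ribosomal protein lists left of it, while collagen and DNA methylation genes spread to both sides.

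Genes that mark cerebellar neurons were at high levels in the cerebellum libraries. All 25 mature granule neuron genes and all 24 Purkinje cell genes were higher in cerebellum, where 44.0% of all tested genes were. Their medians were 8.77 (7.79 with bounds) and 8.29 (7.90). In 12 and 9 of them only cerebellum libraries held more than 3 fragments, so the filter set their direction beforehand. Calb1 (chr4:15881264-15908064), the calcium buffer of Purkinje cells, had no fragment in any embryo library and 3469, 3389 and 1625 CPM in cerebella, at least 2956-fold higher. Pcp2, a Purkinje G-protein regulator, was at least 1389-fold higher, with 1242, 1359 and 1386 CPM. Itpr1, the inositol trisphosphate receptor, was read in embryos too and was 69.4-fold higher in cerebellum, with 40.7, 67.5 and 40.7 CPM against 5148, 3890 and 1378. Cerebellum replicate 3 was the lowest in Calb1 and Itpr1 and not in Pcp2. Car8, which inhibits that receptor, and Slc1a6, the Purkinje glutamate transporter, were 548-fold and 444-fold higher in cerebellum. For granule neurons, Gabra6 (chr11:42306437-42321072), their GABA-A receptor subunit, had no fragment in embryos and 586, 587 and 1187 CPM in cerebella (at least 822-fold). The protocadherin gene Fat2 was 565-fold higher, with 3.06 ± 1.56 against 1657 ± 409 CPM, and Neurod1, which drives granule cell differentiation, had 0.0824 CPM against 1037. Zic1, a factor of cerebellar neurons that the early neural plate also uses, was 129-fold higher (6.55 against 839 CPM), and Zic2 10.6-fold (58.1 against 617). Of 20 granule cell progenitor genes, 12 were higher in cerebellum and 7 in embryo. Atoh1, which defines these progenitors and whose promoter drives the Cre transgene, had no fragment in embryos and only 2.04, 2.21 and 2.64 CPM in cerebella. All 12 interneuron genes were higher in cerebellum (median 6.26, or 4.62 with bounds), and in 4 of them only cerebellum libraries held more than 3 fragments. Slc32a1, which loads GABA into vesicles, had 467 CPM in cerebella against 2.51, and the glycine transporter Slc6a5 was seen in cerebellum only. Of 12 forebrain neuron genes, 9 were tested, 6 were higher in cerebellum and 2 in embryo, at 0.0452% of cerebellum footprints against 2.12% for Purkinje cell genes.

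Glial genes were higher in cerebellum as well. Of 22 Bergmann glia and astrocyte genes, 20 were higher in cerebellum and 1 in embryo (median 7.10). In 4 of the 22 only cerebellum libraries held more than 3 fragments, so the filter set their direction beforehand. Slc1a3, the glial glutamate transporter, had 16.4, 18.3 and 16.5 CPM in embryos and 2133, 2142 and 2247 in cerebella (127-fold), Sparcl1 was 83.9-fold higher and Gfap, the astrocyte filament, was seen in cerebellum only (at least 344-fold). Apoe was abundant in both tissues, with 3399, 2311 and 2924 CPM against 2887, 2840 and 4428, and missed the threshold (log2 0.23, adjusted p = 0.33, edgeR). Gja1, the gap junction protein connexin 43, was the member higher in embryo (log2 -0.49), a call that was lost without any 1 of the 3 embryo libraries or without cerebellum replicate 1 or 2. Of 20 oligodendrocyte and myelin genes, 19 were higher in cerebellum (median 8.56, or 6.97 with bounds), and in 8 only cerebellum libraries held more than 3 fragments. The myelin genes Mag and Mog had no fragment in embryos, at least 1117-fold and 319-fold higher in cerebellum, and Cnp, an enzyme of myelin, was 121-fold higher (11.9, 12.9 and 8.74 CPM against 1475, 1625 and 993). Pdgfra marks oligodendrocyte precursors but also embryonic mesoderm, and it was higher in embryo (204 against 65.3 CPM). Of 15 microglia genes, 14 were tested and 13 were higher in cerebellum (median 6.28, or 4.79 with bounds), Csf1r by 54.7-fold (1.45 against 74.5 CPM). In 10 of the 15 only cerebellum libraries held more than 3 fragments. Tmem119 went the other way, with 22.2 ± 2.1 CPM in embryos and 8.92 ± 1.27 in cerebella. Among 10 choroid plexus genes, 6 were higher in cerebellum and 2 in embryo, and cerebellum replicate 1 was the highest in Enpp2 (1789 CPM, against 740 and 728) and Kl (53.6, against 13.9 and 17). Without that library the median of the choroid plexus list was 0.37, against 1.64 with it.

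Genes of synapses and of electrical activity were all higher in cerebellum. All 37 synaptic vesicle genes, all 30 ionotropic receptor genes and all 35 voltage-gated channel genes were higher in cerebellum, where 44.0% of all tested genes were. Their medians were 7.87, 7.48 and 6.89 (7.49, 5.47 and 6.43 with bounds). In 7, 16 and 14 of them only cerebellum libraries held more than 3 fragments, so the filter set their direction beforehand. Together these 102 genes took 0.0846%, 0.0844% and 0.0840% of embryo footprints and 3.10%, 3.07% and 2.99% of cerebellum footprints. Cerebellum replicate 3 was close to the others in this sum. Snap25, a core subunit of the vesicle fusion complex, had 1.49, 0 and 0.336 CPM in embryos and 2069, 2352 and 2634 in cerebella. The vesicle protein synaptophysin, Syp, was 423-fold higher (3.48 against 1485 CPM), the small GTPase Rab3a 452-fold and the dynamin Dnm1, which cuts vesicles from the membrane, 284-fold. At the lower end was Bin1, which bends membranes in many cell types (75 against 209 CPM, 2.79-fold). Among receptors, the NMDA receptor subunit Grin1 was at least 740-fold higher, and the AMPA receptor subunit Gria1 had 538 ± 106 CPM in cerebella against 0.733 ± 0.392. Among channels, the P/Q-type calcium channel Cacna1a was 72.0-fold higher, with 7.47, 6.18 and 7.39 CPM in embryos and 603, 496 and 403 in cerebella. Of the neuronal cytoskeleton genes, 29 of 30 were higher in cerebellum and Stmn1 missed the threshold (adjusted p = 0.122, edgeR), with a median of 5.19. The spectrin Sptan1 was 5.74-fold higher (420 ± 97.4 against 2413 ± 1021 CPM), Map1b 4.90-fold and the neuronal tubulin Tubb4a 56.5-fold.

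**Figure D3:**
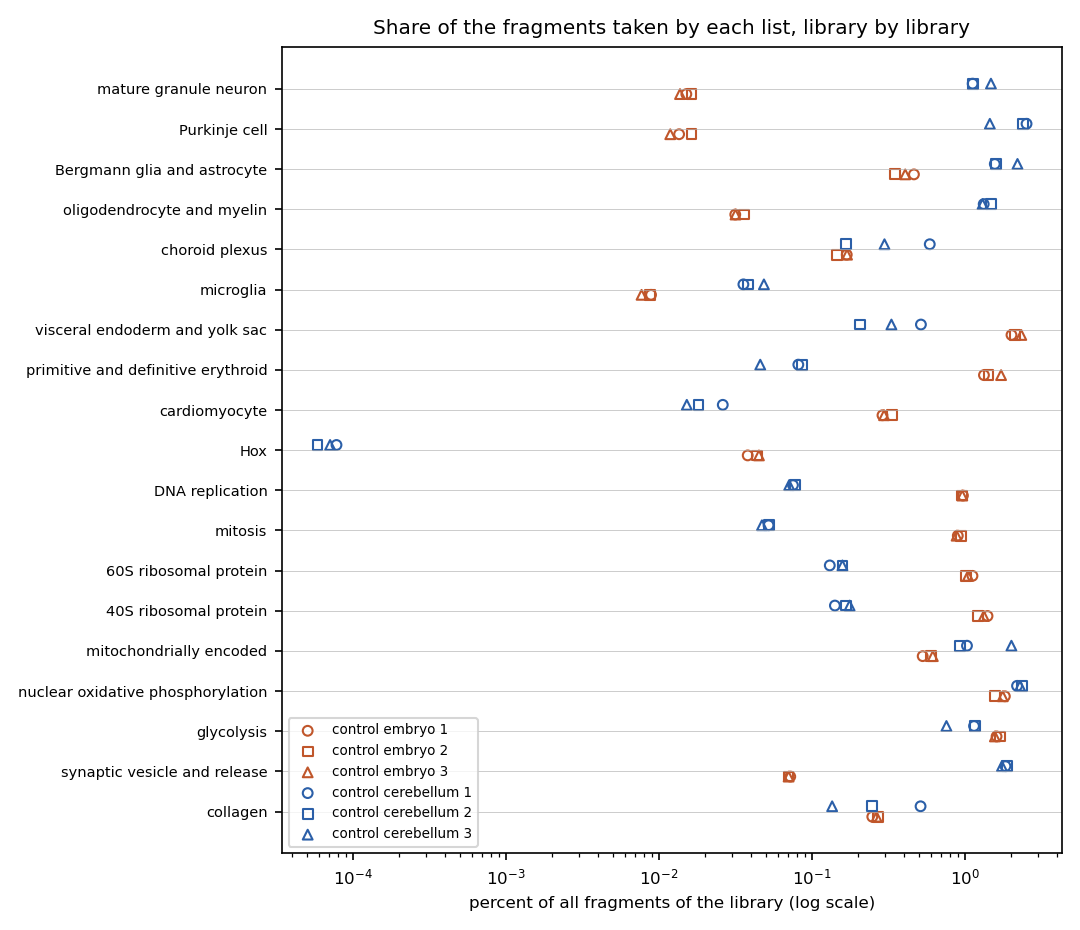
Percent of all footprint fragments taken by each of 19 gene lists, one point a library (3 embryo, 3 cerebellum), on a log axis. The choroid plexus and collagen shares overlap between the tissues. The Purkinje share is lowest in cerebellum replicate 3 and the mitochondrially encoded share highest there.

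Genes of DNA replication and mitosis were higher in embryo. All 44 DNA replication genes and all 38 mitosis genes were higher in embryo, where 36.1% of all tested genes were, with medians of -3.97 and -4.60. Their summed share was 1.87% ± 0.0295 in embryos and 0.125% ± 0.00611 in cerebella, a ratio of 14.9. Mcm3 (chr1:20802968-20820312), part of the helicase that opens DNA for copying, had 604, 613 and 608 CPM in embryos and 13.3, 14.5 and 11.7 in cerebella, 46.2-fold higher in embryo (log2 -5.53, SE 0.15, adjusted p = 1.83e-09, edgeR). The helicase genes Mcm5 and Mcm6 were 30.2-fold and 29.7-fold higher. Rrm2, the regulated subunit of the enzyme that makes deoxynucleotides, was 43.2-fold higher and Pcna, the sliding clamp, 9.23-fold. The smallest difference was that of Rpa1, which coats single-stranded DNA (238 against 102 CPM, 2.35-fold). Cdk1, the kinase that drives entry into mitosis, had 581, 527 and 577 CPM in embryos and 12.8, 13 and 13.8 in cerebella (42.4-fold, log2 -5.41, SE 0.14). Plk1 and Kif20a, which act in spindle assembly and cytokinesis, were 68.8-fold and 58.3-fold higher in embryo, Top2a, which untangles chromosomes, 29.7-fold, and the proliferation marker Mki67 14-fold. The smallest difference was that of Bub3 (353 against 124 CPM, 2.86-fold). Of 27 cyclins, inhibitors and pocket proteins, 18 were higher in embryo and 9 in cerebellum. Cdk4 and Ccnd2, which move cells through G1, were 8.48-fold and 5.68-fold higher in embryo. CDK inhibitors and pocket proteins went both ways. The inhibitors Cdkn1c and Cdkn2a and the pocket protein Rbl1 were higher in embryo (log2 -3.78, -6.56 and -3.07). In cerebellum, the inhibitor Cdkn1b was 6.84-fold higher (29.4 ± 6.53 against 203 ± 9.49 CPM), the pocket proteins Rb1 and Rbl2 6.24-fold and 19.3-fold, the neuronal kinase Cdk5 5.33-fold and its activator Cdk5r1 129-fold (1.37 against 187 CPM).
The promoters of the replication genes were searched for 3 E2F-type letter strings, TTTCCCGC, TTTGGCGC and TTTCGCGC, on both strands in the 250 bases before each RefSeq start (GRCm38.p6). E2F factors activate S-phase genes. At least 1 string was found for 9 of 36 DNA replication genes with a promoter (25%), 358 of 10917 tested genes (3.28%) and 480 of 27025 genes in the whole table (1.78%). Among genes called 2-fold higher in embryo it was 124 of 2782 (4.46%), and among those higher in cerebellum 75 of 3816 (1.97%). The other lists gave 2 of 29 mitosis genes (6.90%), 3 of 42 ribosome biogenesis genes (7.14%), 2 of 44 nuclear oxidative phosphorylation genes (4.55%), 1 of 30 synaptic vesicle genes (3.33%), and none of 13 Purkinje cell and 22 Hox genes. The windows of Mcm6 (chr1:128359706-128359955, minus strand) and Mcm5 (chr8:75109259-75109508, plus strand) are shown because they held 3 and 2 matches, in capitals. Matches to TTTGGCGC and TTTCGCGC overlap each other on opposite strands where the capitals run on.
Mcm6: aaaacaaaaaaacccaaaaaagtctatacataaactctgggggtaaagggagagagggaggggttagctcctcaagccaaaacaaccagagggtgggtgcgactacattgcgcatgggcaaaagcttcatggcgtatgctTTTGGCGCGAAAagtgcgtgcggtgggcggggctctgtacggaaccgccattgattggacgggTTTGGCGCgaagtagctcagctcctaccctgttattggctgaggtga
Mcm5: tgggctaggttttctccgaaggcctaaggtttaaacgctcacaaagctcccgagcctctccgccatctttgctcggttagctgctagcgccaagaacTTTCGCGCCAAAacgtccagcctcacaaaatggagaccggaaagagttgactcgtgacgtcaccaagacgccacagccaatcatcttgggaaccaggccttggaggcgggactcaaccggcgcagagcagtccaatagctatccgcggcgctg
A match is a description of these letters, and the Mcm3 window held none.

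Genes for building and running ribosomes had more footprints in embryos. The 80 cytosolic ribosomal protein genes took 2.52%, 2.23% and 2.37% of embryo footprints and 0.272%, 0.326% and 0.334% of cerebellum footprints. Of 46 tested genes of the large subunit, 40 were higher in embryo and 1 in cerebellum, and of 32 of the small subunit 30 and none, each with a median of -2.27. Rps13 and Rps29 missed the threshold. Many of these genes have near-identical pseudogenes, which can draw off or split reads, so their levels are uncertain and uneven between genes. Rack1, a scaffold on the small subunit, had 3414, 2883 and 3343 CPM in embryos and 308, 326 and 299 in cerebella (10.3-fold), and Rps3 was 7.91-fold higher in embryo. Ribosome biogenesis genes, which process rRNA and assemble subunits in the nucleolus, were higher in embryo in 49 of 50 cases (median -2.49). Ubtf, which activates rRNA transcription, was the exception (log2 0.36), and it was not called with library totals (0.20, adjusted p = 0.17, edgeR). Initiation factors had the same direction in most cases, with 36 of 44 higher in embryo and 5 in cerebellum (median -1.40). The eIF3 subunit genes Eif3l and Eif3b were 5.10-fold and 6.40-fold higher in embryo. Eif4ebp1, the repressor of cap binding that mTOR controls, was 68.1-fold higher (87.1 ± 6.39 against 1.25 ± 0.204 CPM). Eif4g1, the scaffold of the cap complex, had 692, 882 and 694 CPM in embryos and 358, 296 and 131 in cerebella. Eif4a2, the helicase form common in brain, was 3.99-fold higher in cerebellum (133 ± 14 against 529 ± 38.3 CPM). Of 14 elongation and termination factors, 10 were higher in embryo and 4 in cerebellum (median -1.49). Eef2, which moves the ribosome along the mRNA, was 3.38-fold higher in embryo and its inhibitory kinase Eef2k 2.68-fold higher in cerebellum (13.8 against 37.2 CPM). The other 3 were Eef1a2, Eif5a2 and Gspt2, each the second copy of a factor whose main gene was higher in embryo. The Gspt2 call (1.61-fold, adjusted p = 0.0166, edgeR) was lost without embryo replicate 1 or 2 or cerebellum replicate 2 (adjusted p = 0.051, 0.054 and 0.058). In sum, the 58 cytosolic translation factors took 2.13% of embryo and 0.852% of cerebellum footprints.

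The ribosome rescue and decay factors, among them Hbs1l, Pelo and Upf2, which the series removes in its mutants, had smaller differences. They release stalled ribosomes and destroy faulty mRNAs. Of 24 such genes, 13 were higher in embryo, 2 in cerebellum and 9 were not called, against 80.2% of all tested genes called, and the median was -0.36. Without embryo replicate 2 the number higher in embryo was 7. Hbs1l (chr10:21295979-21368898) and Pelo (chr13:115088355-115090186) encode partners that split ribosomes stuck on an mRNA. Hbs1l had 56.8, 51.2 and 48.0 CPM in embryos and 38.5, 40.8 and 45.5 in cerebella. These ranges lie next to each other without overlap (1.25-fold higher in embryo, log2 -0.32, SE 0.13, adjusted p = 0.0494, edgeR), and the call was lost with DESeq2 (adjusted p = 0.0603), without the low-count filter (log2 -0.27, adjusted p = 0.115) and without embryo replicate 1 (log2 -0.24, adjusted p = 0.17). Pelo differed more, with 67.2, 52.9 and 56.8 CPM in embryos and 30.3, 29.5 and 21.2 in cerebella (2.18-fold, log2 -1.13, SE 0.17, adjusted p = 0.000151, edgeR). Abce1, which recycles ribosomal subunits after splitting, was 2.78-fold higher in embryo (313 ± 5.91 against 113 ± 3.70 CPM). The related GTPase genes parted. Gtpbp1 had 98.7 ± 5.82 CPM in embryos and 92.1 ± 1.5 in cerebella and missed the threshold (log2 -0.10, adjusted p = 0.439, edgeR). Gtpbp2 (chr17:46161032-46169370), whose loss in mice with reduced n-Tr20 leads to neurodegeneration, had 8.96, 13.1 and 13.8 CPM in embryos and 52.7, 53.3 and 49.7 in cerebella, 4.30-fold higher in cerebellum (log2 2.1, SE 0.17, adjusted p = 1.31e-06, edgeR). Of the nonsense-mediated decay factors, the helicase gene Upf1 was 1.75-fold higher in embryo (256 ± 9.80 against 146 ± 30.4 CPM). Upf2 had 51.8 ± 11.2 CPM against 36.6 ± 5.01 (log2 -0.51, adjusted p = 0.0246, edgeR). Smg8, a regulator of the kinase that acts on Upf1, was 2.57-fold higher in embryo, while Smg1, that kinase itself, missed the threshold (adjusted p = 0.308, edgeR). Upf3a was the other gene higher in cerebellum (25 ± 5.28 against 41.0 ± 5.54 CPM, adjusted p = 0.00475, edgeR), with an adjusted p of 0.097 when all libraries were thinned to equal depth. Eif4e2, a cap-binding repressor recruited to collided ribosomes, was 3.05-fold higher in embryo, and Zfp598, the ligase that senses such collisions, 1.55-fold.

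**Figure D4:**
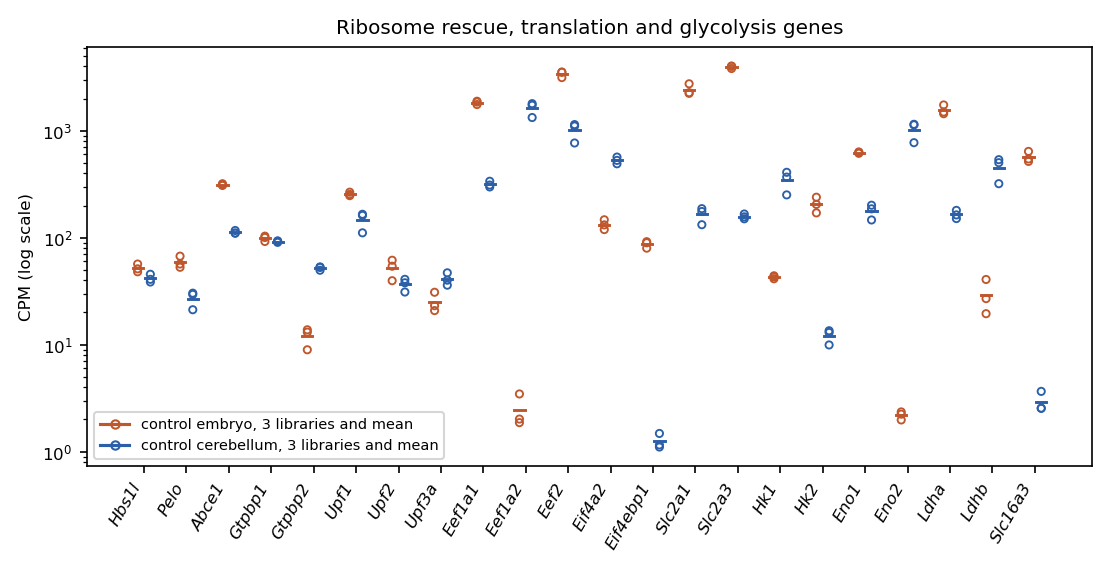
Footprint level (CPM, log axis) of 22 genes of ribosome rescue, translation and glycolysis in each of the 3 embryo and 3 cerebellum libraries, with a bar at each mean. The genes were chosen after their values were seen. The tissues are 630-fold apart in Eef1a2 and 467-fold in Eno2, while in Hbs1l and Gtpbp1 they lie close together.

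Pairs of related genes showed how far the tissues used different copies of 1 protein. Of 26 pairs listed with an earlier or widespread copy and a later, neuronal or adult-type one, 22 had at least 100 fragments in every library. The share of the later copy, per coding length, did not overlap between tissues in 21 of these, and it was higher in cerebellum in 19 and higher in embryo in 2. In 15 pairs the later copy went from under to over 50%, and in 14 it moved by over 50 points. The pairs were chosen with the neuronal use of the later copies known. The elongation factor pair was the widest apart among the translation genes. Eef1a1 (chr9:78478449-78489151), which delivers aminoacyl-tRNA to the ribosome in most cells, had 1888, 1855 and 1758 CPM in embryos and 298, 311 and 337 in cerebella (5.81-fold, log2 -2.54, SE 0.13, adjusted p = 4.70e-08, edgeR). Eef1a2 (chr2:181147653-181157014), its copy in neurons and muscle, had 1.87, 3.46 and 2.02 CPM in embryos and 1731, 1793 and 1329 in cerebella (630-fold, log2 9.30, SE 0.27, adjusted p = 1.88e-09, edgeR). Eef1a2 thus took 0.0986%, 0.186% and 0.114% of the pair in embryos and 85.3%, 85.2% and 79.7% in cerebella. Their coding sequences share no 30-base window, and shorter ones were not searched. Enolase and aldolase moved in the same manner, Eno2 from 0.367% to 85.7% of its pair with Eno1 and Aldoc from 1.32% to 80.7% of its pair with Aldoa. The fusion protein gene Snap25 went from 0.525% to 99.2% of its pair with Snap23. Among RNA-binding proteins, Ptbp2 went from 18.9% to 82.6%, a switch known to accompany neuronal splicing, and Elavl3 from 0.137% to 54.9%. Subunits of the neuronal BAF chromatin complex changed as well, Actl6b from 0 to 72.5%, Ss18l1 from 5.67% to 56.6% and Dpf1 from 8.45% to 36.3%. Tubb4a went from 0.657% to 62.8% of its pair with Tubb5, the de novo methylase Dnmt3a from 43.8% to 99.4% of its pair with Dnmt3b, and the helicase Eif4a2 from 72.0% to 95.3%. The pairs that ran the other way were the glucose transporter Slc2a3, with 61.1% of its pair in embryos and 48.1% in cerebella, and the cyclin Ccnd2, with 58.1% and 49.4%. In the Hbs1l-deficient libraries Ccnd2 ran in the opposite direction, with 54.8% in embryos and 68.3% in cerebella. Shares of the 14-3-3 gene Ywhag overlapped between tissues, at 99.1% and 99.2%.

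**Figure D5:**
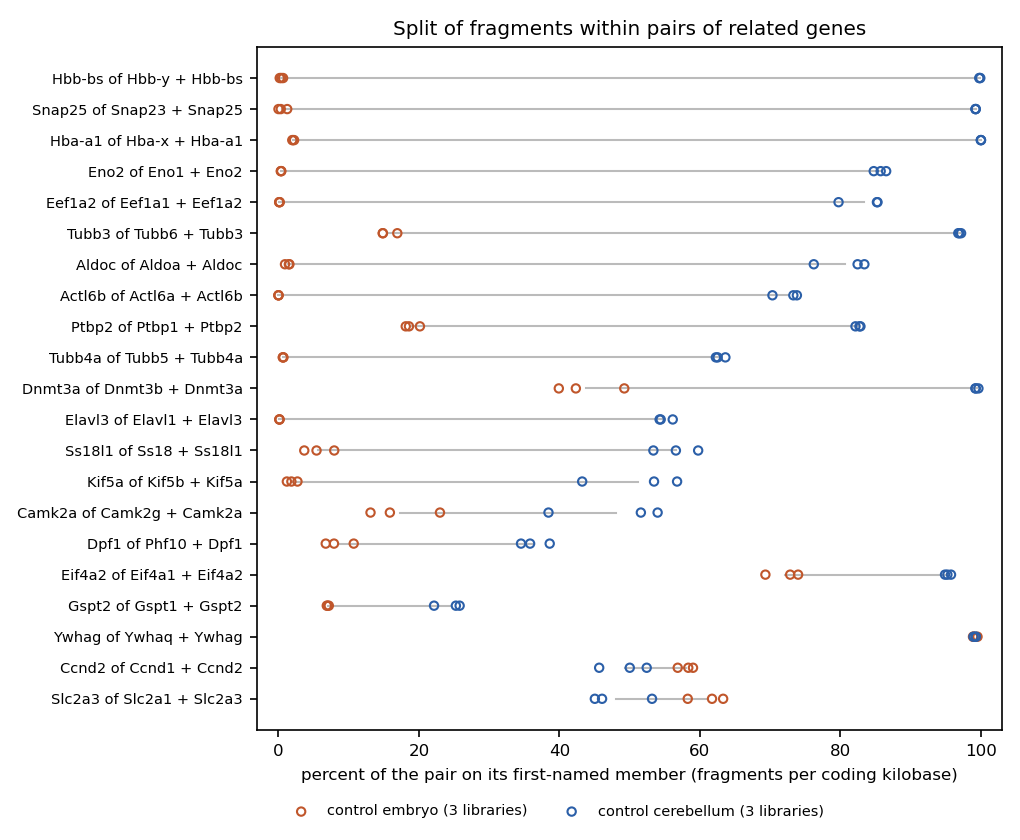
Percent of the footprints of 21 of the 22 gene pairs, per coding length, that fell on the member named first, one point a library. In all pairs but 3 the 3 cerebella lie at higher percentages (to the right) than the 3 embryos, in 2 (Slc2a3 and Ccnd2) at lower ones, and in Ywhag they overlap.

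Genes of respiration were mostly higher in cerebellum, and those of glycolysis were divided between the tissues. Of 13 mitochondrially encoded genes, 11 were higher in cerebellum and 2 missed the threshold (mt-Nd3 and mt-Nd6), with a median of 1.17. mt-Co1, a subunit of cytochrome oxidase, had 1196, 1382 and 1436 CPM in embryos and 3724, 3357 and 6605 in cerebella (3.41-fold, log2 1.77, SE 0.25, adjusted p = 7.5e-05, edgeR). Cerebellum replicate 3 was the highest in this list, and without it 13 genes were called and the median was 0.93. Without embryo replicate 1 or without embryo replicate 3, 8 were called. Of the nuclear genes of oxidative phosphorylation, 44 of 55 were higher in cerebellum and 1, Sdhd, in embryo, with a median of 0.69 against 0.21 for all genes. Cox4i1, Ndufa4 and Cox8a were 1.64-fold, 3.11-fold and 2.85-fold higher in cerebellum, and Atp5b, a catalytic subunit of ATP synthase, missed the threshold (log2 0.04, adjusted p = 0.797, edgeR). Of 20 tested glycolysis genes, 11 were higher in embryo, 6 in cerebellum and 3 were not called (median -0.95). Transporters for glucose and lactate were higher in embryo. Slc2a3 had 3817, 4003 and 4027 CPM in embryos and 167, 150 and 157 in cerebella (25-fold), Slc2a1 was 14.7-fold higher in embryo, and the lactate transporters Slc16a1 and Slc16a3 were 3.64-fold and 192-fold higher. In between, the tissues used different isoenzymes. Hk2, Pfkl, Eno1 and Ldha, typical of growing cells, were 17-fold, 5.70-fold, 3.51-fold and 9.47-fold higher in embryo, whereas Hk1, Pfkm, Eno2, Ldhb and Aldoc were 8.01-fold, 6.97-fold, 467-fold, 15.7-fold and 291-fold higher in cerebellum. Aldoa missed the threshold, with mean levels of 1264 and 1126 CPM. Cerebellum replicate 3 held 0.66 times the glycolysis share of the other cerebella.

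Imprinted growth genes, expressed from 1 parental copy and active in fetal growth, were higher in embryo in 13 of 19 tested cases and higher in cerebellum in 3 (median -2.43). Mest (chr6:30723547-30748465) had 1452, 1417 and 1409 CPM in embryos and 45.8, 41.7 and 40.1 in cerebella (33.5-fold). Peg10, a retrotransposon-derived gene of the placenta, was 44.5-fold higher in embryo, and Grb10, which restrains insulin signalling, 24.6-fold. The growth factor Igf2 had 894 ± 16.5 CPM in embryos and 247 ± 35.6 in cerebella (3.61-fold). Gnas, Ndn and Snrpn, with known roles in neurons, were 1.82-fold, 3.10-fold and 6.74-fold higher in cerebellum. Of 15 tested genes of DNA methylation and its reading, 6 were higher in cerebellum, 4 in embryo and 5 were not called. The maintenance enzyme Dnmt1 and its cofactor Uhrf1 were 4.35-fold and 55.3-fold higher in embryo, and Dnmt3b was 139-fold higher (126 ± 25 against 0.862 ± 0.345 CPM). Dnmt3a was 1.45-fold higher in cerebellum (adjusted p = 0.0198, edgeR), a call that was lost with library totals (log2 0.38, adjusted p = 0.068). Collagens had no common direction, with 9 of 22 genes higher in cerebellum and 10 in embryo. Col1a1, of fibrous tissue, had 2317, 688 and 342 CPM in cerebella and 257, 292 and 234 in embryos (log2 2.09, adjusted p = 0.00531, edgeR), and Col4a1, of basement membranes, was 2.73-fold higher in embryo. The list's median was 0.21, and it was -0.82 without cerebellum replicate 1 and -0.19 without cerebellum replicate 2. Of 19 tested immediate early and heat shock genes, 10 were higher in cerebellum and 6 in embryo. The activity-induced factors Fos and Egr1 were 25-fold and 31.8-fold higher in cerebellum, and the chaperone Hsph1 2.63-fold higher in embryo.

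Few genes could be shown to be alike. For 590 genes (4.22%) the 95% interval of the log2 difference lay within 0.5 in either direction, and 142 of these had at least 100 CPM in both tissues. The number depended on single libraries: it was 304 without cerebellum replicate 2, 357 without embryo replicate 3 and 382 without embryo replicate 2. The 5 with the narrowest intervals among those 142 were Rhoa (log2 -0.22), a GTPase of the actin cytoskeleton, the phosphatase subunit Ppp2r5d (-0.25), the transcription factor Ets2 (0.10), the iron regulator Ireb2 (-0.02) and Sec23a (-0.04), which coats vesicles leaving the endoplasmic reticulum. With library totals Rhoa and Ppp2r5d were called higher in embryo (-0.38 and -0.40). A further 2186 genes were neither called nor shown to be alike. Median coding length was 1521 bases for genes called 2-fold higher in cerebellum, 1427 for those higher in embryo, 1494 for alike genes and 1470 for all tested.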

How the data were processed

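Ribosome footprints of 3 control embryo pools and 3 control cerebella were analysed. The authors deposited raw counts, one whole number of fragments per gene, without normalization. Per the submitters' processing notes and the study's methods, they removed rRNA and tRNA reads with Bowtie2 2.2.3, mapped the rest to mm10 with HISAT2 2.1.0 and counted reads on coding sequences of Gencode M24 with featureCounts. Samples were grouped by title and genotype in the labels. Totals were 2634480 to 4067319 fragments in embryos and 12771304 to 22496959 in cerebella, so low genes are less precise in embryos. The limit of 3 fragments covers counting error only, while the intervals of log2 differences also hold the spread between replicates.

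Histone genes (101 symbols) were left out, as in the study. The 6 libraries were fitted with edgeR 4.0.16 (limma 3.58.1, R 4.3.3) after its default low-count filter, using the quasi-likelihood test and TMM scaling. An adjusted p (Benjamini-Hochberg, over 13990 genes) of at most 0.05 was called. The fit was tested on simulated data with the same library sizes (12619 genes). It called all 50 genes changed 4-fold in each direction, 75.5% and 80.0% of genes lower or higher by 2-fold, and 0.137% of unchanged genes. Few genes were changed there, evenly in both directions and with the same dispersion for all. In the real libraries 80.2% of genes were called and cerebellum replicate 3 stood apart, so these rates need not hold for them. Where a gene had no fragment in a tissue, a fold is given against 3 fragments per library. Genes were called alike where the 95% interval of the log2 difference lay within 0.5. List shares are percent of all fragments, with histone genes kept in that total. Pair shares are per coding base. Symbols matched 99.82% of 22438 genes, coordinates and coding lengths are from Gencode M21 (GRCm38), and promoters from RefSeq (GRCm38.p6). Tables and figures were made with Python 3.11.15, pandas 2.3.3, numpy 2.4.6 and matplotlib 3.10.9. Alternatives were DESeq2 1.42.0, other scalings and filters, thinning to equal depth, a replicate block, each library left out, and the Hbs1l-deficient libraries of the same tissues.

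The members, gene lists and gene pairs were chosen with earlier results of these data known. The rule named Hbs1l and Pelo, the 10 genes with the largest called difference in each direction (groups not overlapping, at least 50 CPM), the 10 genes with the most CPM per tissue, up to 4 called members of each list with the most CPM, up to 3 called the other way, members at 0, both genes of each pair, and the 5 most precisely alike genes with at least 100 CPM. Other members named here were chosen for their known roles after their values were seen. Some genes that the rule names are not reported here.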

Additional observations from a re-analysis of the deposited data

Results flagged for a closer look

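The difference between tissues itself differed between the control and the Hbs1l-deficient libraries for 13 of 328 genes, those that the naming rule chose or the text names, by the interaction of tissue and genotype over 12 libraries (edgeR, adjusted over 14622 genes). Across all genes 108 interactions were called, 69 more positive in the mutants and 39 more negative. In each case below, the first value is the interaction on the log2 scale. That of Hbs1l was 2.114 (adjusted p = 0.0251, edgeR), with tissue differences of -0.32 in controls and 1.76 in mutants. Hbs1l is deleted in all cells of the mutant embryos and in a part of the cells of the mutant cerebella, so the mutant value does not describe normal tissue. The homeobox gene Uncx had 4.031 (adjusted p = 0.0251, edgeR). Its mutant embryo libraries held 1 fragment on average, so the size of the mutant difference and of the interaction depends on the fit at that floor and is no measured fold.

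Among cell cycle genes, interactions were called for 6 of 44 DNA replication genes, 8 of 38 mitosis genes and 1 of 27 cyclins and inhibitors. Over all genes tested for an interaction the count was 108 of 14622. An interaction that missed the threshold is not shown to be absent. Mitosis genes took 0.0505% of footprints in control and 0.0973% in mutant cerebella, and 0.906% and 0.962% in the embryos, a difference between genotypes that was not tested as a share. Cdk1 had 1.486 (-5.41 and -3.92, adjusted p = 0.0272, edgeR), Ccnd2 1.549 (-2.50 and -0.95, adjusted p = 0.0276) and Uhrf1, which keeps DNA methylation through replication, 1.642 (-5.79 and -4.14, adjusted p = 0.0438). The mitotic kinase gene Plk1 had 1.594 (-6.10 and -4.50, adjusted p = 0.0272) and Rrm2 1.157 (-5.43 and -4.27, adjusted p = 0.0251, edgeR). Mybpc3 had 1.369 (-0.12 and 1.26, adjusted p = 0.0305, edgeR). Zic1 had 2.01 (7.01 and 9.03, adjusted p = 0.0225, edgeR), with 9.33 fragments on average in the mutant embryo libraries. The Wnt antagonist Sfrp1 had 1.71 (-1.65 and 0.07, adjusted p = 0.0264, edgeR). On the other side were Eif4a2 with -0.9033 (1.99 and 1.10, adjusted p = 0.0472), the VEGF receptor Flt1 with -1.552 (0.78 and -0.76, adjusted p = 0.0264) and the secreted protease Htra1 with -1.596 (5.14 and 3.55, adjusted p = 0.0272). The causes were not tested.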

How the results depend on the processing

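Counts of called genes ran from 10080 to 11979 over all alternatives, against 11214, and the genes called 2-fold from 7687 to 9406 in all. The count of alike genes moved most. It was 590, and 304 to 802 with a library left out, 356 in the Hbs1l mutant libraries and 3059 with an interval within 1. Of list counts, 730 of 735 compared stayed within 1.5 times. Of 717 list medians, 3 were counted as reversed, all of them the collagens. The collagen median was -0.54 when thinned to the smallest library, -0.82 to 0.51 with a library left out, and negative without cerebellum replicate 1 or 2. The median of the Y-linked genes, none of them called, also changed sign and is not among those 3. It was 0.18 with TMM factors and -0.00083 with library totals. Of 328 named genes tested, 279 had the same call in every alternative and 296 in every alternative on control libraries alone. In the Hbs1l mutant libraries the log2 differences of 7 named genes called in the controls reversed: Atp5g3 (-0.17), Col2a1 (0.37), Flt1 (-0.76), Hba-a1 (0.79), Hbs1l (1.76), Sfrp1 (0.067) and Sox2 (0.035). Mybpc3, which was not called in the controls, is not among them and had -0.12 in controls and 1.26 in mutants. The cause was not tested. Replicate numbers did not pair the samples (correlations of same-numbered deviations -0.0233, 0.00794 and 0.0280), and with the replicate block 11177 genes were called. DESeq2 called 11144. The list shares that did not overlap numbered 36 of 41. Embryo depth limits the folds of genes absent there, since 3 fragments stand for 0.957 CPM.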
